A study of Mus musculus with 6 samples.

Results

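The 36 genes described here encode enzymes and regulators of cholesterol and fatty acid synthesis, and all 36 were found among the 25978 genes of the deposited table by their symbols. They fall into a sterol branch of 19 genes, 5 regulators and a fatty acid branch of 12 genes, and the selection used no measured value of the table. The RNA came from cells sorted out of primary pancreatic tumours of KPCY mice, in 3 libraries of YFP+EpCAM- cells and 3 libraries of YFP+EpCAM+ cells. EpCAM is a surface adhesion protein of epithelial cells, and YFP is a yellow fluorescent protein that marks cells in which Cre was active. Mice of both groups were of C57BL/6 background, between 5 and 7 weeks old, and carried Pdx1-Cre, Trp53 fl/fl and Rosa26 LSL-YFP, in which LSL is a stop cassette that Cre removes. Pdx1-Cre is active in the pancreatic epithelium from its early development, so normal pancreatic cells of that lineage carry YFP as well as tumour cells. The comparison asks how the tumour cells without surface EpCAM, called mesenchymal in the study's title, differ from those with it.

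Cells make cholesterol from acetyl-CoA through mevalonate, the isoprenoids and squalene, and then by a series of changes to lanosterol, the earliest sterol of the route. Fatty acid synthesis starts from the same acetyl-CoA, which is carboxylated, built into palmitate by fatty acid synthase, and then lengthened by Elovl enzymes and desaturated by Scd and Fads enzymes. The transcription factors SREBP, encoded by Srebf1 and Srebf2, activate both branches. Scap carries them out of the endoplasmic reticulum when sterols are low, and the Insig proteins hold Scap back when sterols are high. In mice and cell lines, Srebf2 acts mainly on sterol genes and Srebf1 mainly on fatty acid genes.

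Sterol synthesis genes were lower in EpCAM- than in EpCAM+ cells at almost every step of the route, whereas most fatty acid synthesis genes did not pass the test. In limma, at a Benjamini-Hochberg adjusted p under 0.05 over all 15783 tested genes, 17 of the 19 sterol genes fell, 0 rose and 2 did not pass, where 43.4% of all tested genes were called, 23.1% as lower and 20.3% as higher. Of the 12 fatty acid genes, 2 fell, 2 rose and 8 did not pass. Of the 5 regulators, 3 fell, 1 rose and 1 did not pass. All 36 genes passed the filter on low values. The median log2 fold change (the EpCAM- mean less the EpCAM+ mean, in deposited log2 units) was -1.20 over the sterol branch, 0.005 over the fatty acid branch and 0.004 over all tested genes. A decrease of at least 1 log2 unit was called for 13 sterol genes and 2 fatty acid genes, against 14.5% of all tested genes. An increase of that size was called for 0 of the 36 genes, against 9.36% of all tested genes. Because the genes of a branch are not independent of each other, these counts and medians are descriptions with no test of their own.

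**Figure D1:**
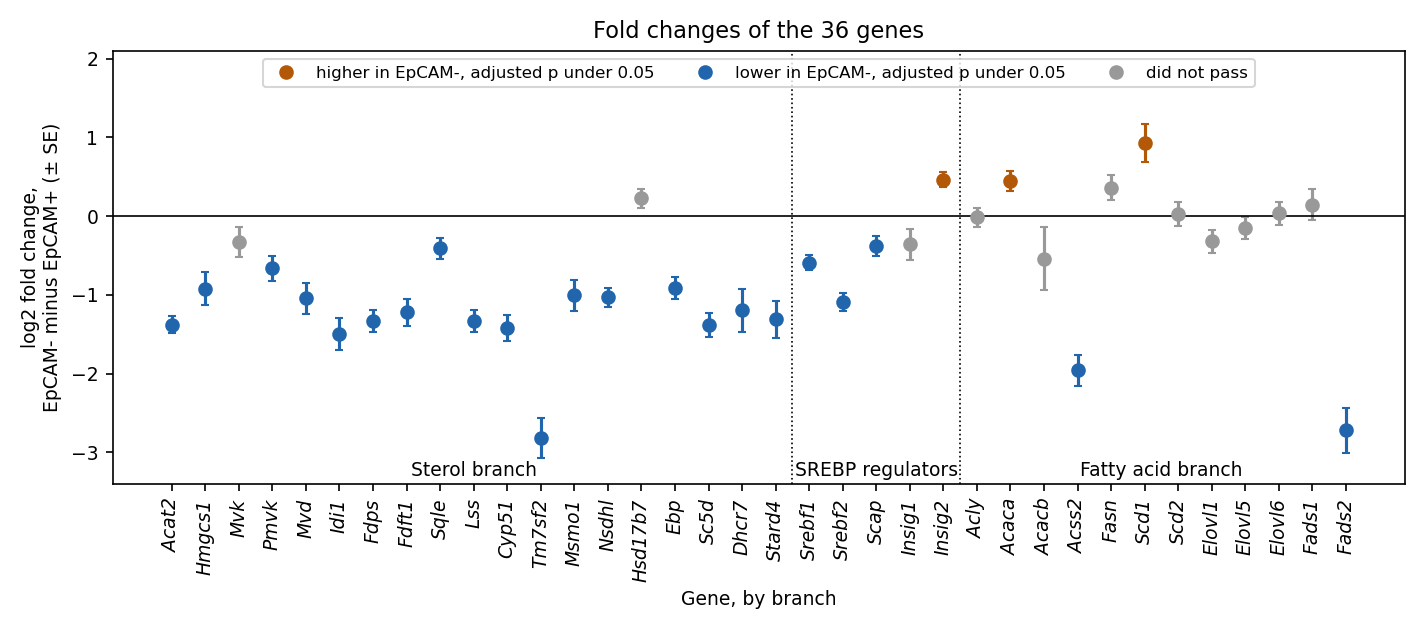
Log2 fold change of each of the 36 genes (y axis, EpCAM- minus EpCAM+, with its SE) by branch (x axis), coloured by whether limma's adjusted p was under 0.05. The 19 sterol genes lie between -2.82 and 0.23, whereas 10 of the 12 fatty acid genes lie between -0.54 and 0.93, with Acss2 and Fads2 far below them.

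The start regions of the genes were read from RefSeq windows on GRCm38.p6 that run from 250 bases before to 50 bases after the gene's start, and 29 of the 36 genes matched a window by symbol. Shown are Hmgcs1 and Cyp51 from the sterol branch, Fads2, the fatty acid gene that fell most, and Fasn, which did not pass. Capitals mark matches on either strand to CCAAT, the box bound by NF-Y, and to TCACNCCAC, a form of the sterol regulatory element that SREBP binds. The windows lie at chr13:119690101-119690400 (plus strand) for Hmgcs1, chr5:4104648-4104947 (minus strand) for Cyp51, chr19:10101454-10101753 (minus strand) for Fads2 and chr11:120824498-120824797 (minus strand) for Fasn.
Hmgcs1: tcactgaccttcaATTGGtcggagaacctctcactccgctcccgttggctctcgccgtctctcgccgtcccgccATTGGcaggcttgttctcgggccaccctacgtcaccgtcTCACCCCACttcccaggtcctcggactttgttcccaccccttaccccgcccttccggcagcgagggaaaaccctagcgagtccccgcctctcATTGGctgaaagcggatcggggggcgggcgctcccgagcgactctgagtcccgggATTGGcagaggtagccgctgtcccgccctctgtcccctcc
Cyp51: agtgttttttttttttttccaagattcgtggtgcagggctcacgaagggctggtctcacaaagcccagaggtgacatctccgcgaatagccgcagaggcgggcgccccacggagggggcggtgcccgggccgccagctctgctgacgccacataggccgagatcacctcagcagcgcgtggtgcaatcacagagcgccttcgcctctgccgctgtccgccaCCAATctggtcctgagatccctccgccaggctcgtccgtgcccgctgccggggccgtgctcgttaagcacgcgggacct
Fads2: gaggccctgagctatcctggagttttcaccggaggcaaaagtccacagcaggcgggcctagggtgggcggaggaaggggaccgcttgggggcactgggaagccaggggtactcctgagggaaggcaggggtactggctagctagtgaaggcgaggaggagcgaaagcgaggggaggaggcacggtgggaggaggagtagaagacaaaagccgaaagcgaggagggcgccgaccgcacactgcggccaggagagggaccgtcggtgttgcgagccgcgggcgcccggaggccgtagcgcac
Fasn: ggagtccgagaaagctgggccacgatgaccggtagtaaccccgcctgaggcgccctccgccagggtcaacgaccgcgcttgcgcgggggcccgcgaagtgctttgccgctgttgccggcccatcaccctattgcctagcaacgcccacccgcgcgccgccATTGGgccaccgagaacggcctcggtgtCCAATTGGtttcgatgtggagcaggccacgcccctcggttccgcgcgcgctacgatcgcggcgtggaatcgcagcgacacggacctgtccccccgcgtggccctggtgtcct

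In Hmgcs1 the window held the sterol element TCACCCCAC at positions -137 to -129 from the start, beside 4 CCAAT boxes on the minus strand. The Cyp51 window held 1 CCAAT box at positions -29 to -25, the Fasn window held 3, of which 2 overlap each other, and the Fads2 window held neither motif. A gene counted as holding a motif where any of its windows did, on either strand. CCAAT was found in 14 of 15 sterol genes with a window (93.3%) and in 6 of 9 fatty acid genes (66.7%), against 42.5% of 11232 tested genes with a window. The GC box GGGCGG was found in 14 of 15 sterol genes (93.3%) and 4 of 9 fatty acid genes (44.4%), against 66.9%. The sterol element was in 1 of 15 sterol genes (6.7%) and 0 of 9 fatty acid genes, against 1.4%, and the E box CACGTG in 3 of 15 (20.0%) and 1 of 9 (11.1%), against 11.4%. Matches of different motifs overlapped in 1 of the 38 windows of these genes. A match is a description of letters in these windows and not a measured binding site.

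The groups of libraries were well separated and the sort was visible in the RNA. Epcam stood at 8.42, 8.22 and 7.22 in replicates 1 to 3 of EpCAM- cells, against 15.07, 14.90 and 14.89 in replicates 1 to 3 of EpCAM+ cells (log2 normalised level). Per-library values below keep this order of replicates. All 8 epithelial markers tested were lower and all 8 mesenchymal markers higher in EpCAM- cells. Markers of other pancreatic cells differed too. The summed level of 9 fibroblast markers, of which 8 were called higher, took between 0.144% and 0.634% of each EpCAM- library's summed linear level and between 0.00472% and 0.0546% in EpCAM+ libraries. Acinar markers, all 8 of them lower, took at most 0.00249% in EpCAM- libraries and between 0.165% and 0.34% in EpCAM+ libraries. Islet markers (6 of 6 lower) took at most 0.000432% in EpCAM- and 0.0345% in EpCAM+ libraries, and leukocyte markers (6 of 6 tested lower) at most 0.002% and 0.0168%. The islet genes Ins1, Ins2 and Sst and the acinar gene Pnlip passed the filter only through the EpCAM+ libraries. A call for these genes could thus only be lower. The T cell gene Cd3e lay between -1.51 and -1.40 in all 6 libraries, close to the lowest value of the table, -1.52, and so did the adipocyte gene Retn. Adipoq, the defining hormone gene of fat cells, stood between -1.12 and -0.97. Cidec, a lipid droplet gene, was the 1 adipocyte marker above the filter, which it passed only through the EpCAM+ libraries. It had 2.21, 2.26 and 2.42 in the EpCAM- libraries, against 4.88, 4.93 and 5.21 in the EpCAM+ libraries. In limma it fell by 2.71 ± 0.20 (SE, adjusted p = 6.75e-05), and its low EpCAM- levels limit what the size of this fall shows. Endothelial markers, of which 1 of 3 tested was higher, took at most 0.000667% in EpCAM- and 0.000398% in EpCAM+ libraries. Among 8 genes of cycling cells, 4 were higher in EpCAM- cells and 4 did not pass. The part of these other cells in the results below was not tested, and in sorted bulk RNA fewer cells of a type and less RNA per cell cannot be told apart. EpCAM+ replicate 1 had the highest leukocyte, islet and fibroblast levels of its group, and without it 16 sterol genes were called lower.

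**Figure D2:**
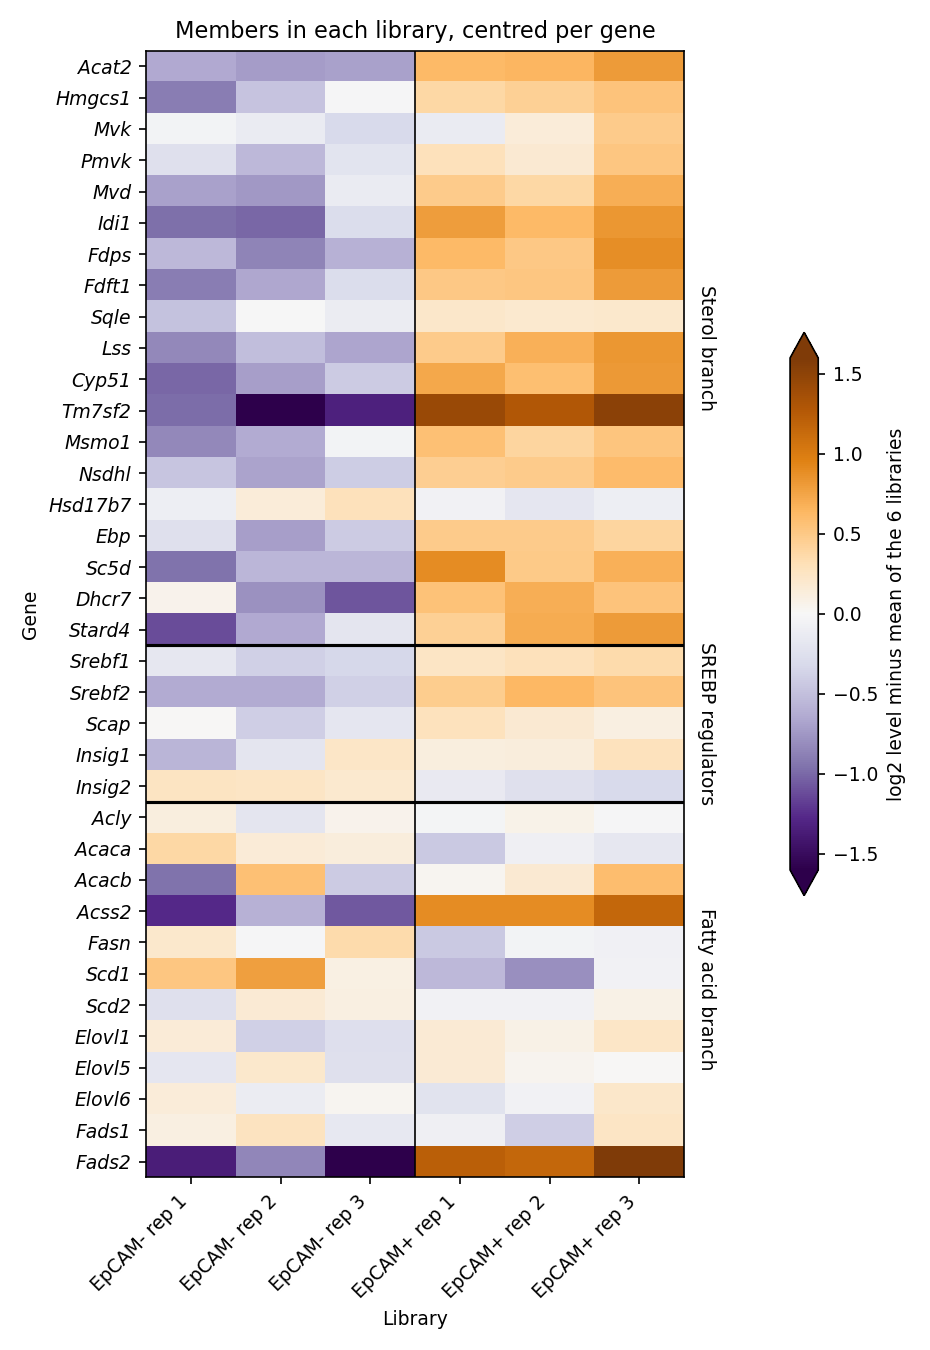
Each row is a gene and each column a library, coloured by the log2 level minus the gene's mean over the 6 libraries. In sterol rows other than Mvk and Hsd17b7, whose groups overlap, every EpCAM- column is lower than every EpCAM+ column. Rows of the fatty acid branch differ in direction from gene to gene.

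The early steps of the sterol route, which end in squalene epoxide, were lower in EpCAM- cells at 8 of 9 genes. Hmgcs1, which makes the HMG-CoA from which mevalonate is formed (ENSMUSG00000093930, GRCm38 chromosome 13), stood at 11.77, 12.19 and 12.64 in the EpCAM- libraries, against 13.05, 13.11 and 13.20 in the EpCAM+ libraries. The EpCAM- libraries spread more widely but did not reach the EpCAM+ libraries. Its log2 fold change was -0.92 ± 0.21 (SE, adjusted p = 0.0120). Idi1, the isomerase of the isoprenoid unit, had 10.02, 9.99 and 10.71 in the EpCAM- libraries, against 11.79, 11.61 and 11.82 in the EpCAM+ libraries. All EpCAM- libraries were lower, replicate 3 the least so, and the fold change of -1.50 ± 0.20 (SE, adjusted p = 0.00111) was a 2.83-fold decrease. Fdps, which joins isoprenoid units to farnesyl diphosphate, fell by 1.33 ± 0.14 (SE, adjusted p = 0.000327). Fdft1, squalene synthase and the entry to sterols proper, fell by 1.22 ± 0.17 (SE, adjusted p = 0.00140). Of the annotated exon bases of Fdps, 26.7% are shared with Gm43738 on the same strand. Of those of Fdft1, Hmgcs1 and Idi1, 18.3%, 12.1% and 9.2% are shared with genes on the opposite strand. Reads of those genes could be counted in these values, since whether strand was used is not stated.

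Acat2, the thiolase that opens the route, had EpCAM- replicates that lay close together. It had 8.37, 8.29 and 8.31 in the EpCAM- libraries, against 9.63, 9.65 and 9.82 in the EpCAM+ libraries. Every EpCAM- library was below every EpCAM+ library, and the fold change was -1.38 ± 0.11 (SE, adjusted p = 0.000107). Its close copy Acat3, which is not among the 36 and was looked up after the values were seen, also fell (-2.46 ± 0.24, SE), so reads shared between them could affect the values of either. The decarboxylase Mvd (-1.05 ± 0.20, SE) and phosphomevalonate kinase, Pmvk (-0.66 ± 0.16, SE), fell as well. Pmvk lost its call without EpCAM+ replicate 3 (adjusted p = 0.0583) and without EpCAM+ replicate 1 and EpCAM- replicate 3 together (adjusted p = 0.0658), within a range between 0.0113 and 0.0658 over 14 alternatives. Mevalonate kinase, Mvk, did not pass. It had 7.92, 7.84 and 7.65 in the EpCAM- libraries, against 7.83, 8.11 and 8.44 in the EpCAM+ libraries, and the groups overlapped (-0.33 ± 0.19, SE, adjusted p = 0.213).

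Sqle, the epoxidase that forms the direct precursor of lanosterol, showed the smallest decrease among the sterol genes called. Its levels were 10.85, 11.33 and 11.21 in the EpCAM- libraries, against 11.56, 11.52 and 11.54 in the EpCAM+ libraries. The EpCAM+ libraries were almost level and the EpCAM- libraries lay below them, with a fold change of -0.41 ± 0.14 (SE) at an adjusted p of 0.0471. The call was lost without EpCAM+ replicate 1, 2 or 3 (adjusted p = 0.118, 0.106 and 0.119) or EpCAM- replicate 3 (adjusted p = 0.0751). It was also lost with no filter (adjusted p = 0.0724), with scaling by a trimmed mean of log ratios (0.0511) and with a block for replicate number (0.0531). The call held in 6 of 14 alternatives. Over those 14 the adjusted p lay between 0.0287 and 0.170.

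From lanosterol onward, 8 of 9 genes were lower in EpCAM- cells, with a median log2 fold change of -1.20, against -1.05 over the 9 early genes. Tm7sf2, a sterol reductase that acts after lanosterol is demethylated (ENSMUSG00000024799, chromosome 19), had the largest decrease of the 36 genes. It stood at 6.68, 5.74 and 6.34 in the EpCAM- libraries, against 9.10, 8.94 and 9.18 in the EpCAM+ libraries. The distance between the groups was more than 2 log2 units at its narrowest, and the fold change was -2.82 ± 0.25 (SE, adjusted p = 0.000159), a 7.05-fold decrease. Of its annotated exon bases, 12.1% are shared with Vps51 on the same strand, which could add reads of that gene. Cyp51, the demethylase of lanosterol, had 10.31, 10.61 and 10.90 in the EpCAM- libraries, against 12.06, 11.89 and 12.14 in the EpCAM+ libraries. Again no EpCAM- library reached the EpCAM+ range, and the gene fell by 1.42 ± 0.16 (SE, adjusted p = 0.000484).

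Lss, which closes the sterol rings to lanosterol, fell by 1.33 ± 0.14 (SE, adjusted p = 0.000318). The desaturase gene Sc5d fell by 1.38 ± 0.16 (SE), the methylsterol oxidase gene Msmo1 by 1.00 ± 0.20 (SE), the sterol dehydrogenase gene Nsdhl by 1.03 ± 0.12 (SE) and the isomerase gene Ebp by 0.91 ± 0.14 (SE). Each of these had no overlap between the groups. Dhcr7, which completes cholesterol in the last step, stood at 9.82, 8.98 and 8.68 in the EpCAM- libraries, against 10.31, 10.45 and 10.31 in the EpCAM+ libraries. Its EpCAM- levels were the most widely spread of the branch (SD 0.59, n = 3), and it fell by 1.20 ± 0.28 (SE, adjusted p = 0.0118). Without EpCAM+ replicate 1 and EpCAM- replicate 3 together its adjusted p was 0.0617, within a range between 0.000412 and 0.0617 over the alternatives.

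Hsd17b7, the ketosteroid reductase of the route, was the sterol gene with a positive fold change. Its levels were 9.88, 10.12 and 10.26 in the EpCAM- libraries, against 9.91, 9.79 and 9.88 in the EpCAM+ libraries. EpCAM- replicate 1 lay inside the EpCAM+ range, and the gene did not pass (0.23 ± 0.12, SE, adjusted p = 0.182). Without that library it was called higher (0.33, adjusted p = 0.0399), within a range between 0.0399 and 0.514 over the alternatives. Stard4, a carrier of cholesterol between membranes, had 9.26, 9.73 and 10.19 in the EpCAM- libraries, against 10.82, 11.08 and 11.19 in the EpCAM+ libraries. It was lower in every EpCAM- library and fell by 1.31 ± 0.23 (SE, adjusted p = 0.00407).

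Of the regulators, Srebf2, Srebf1 and Scap fell, Insig2 rose and Insig1 did not pass. Srebf2 stood at 11.72, 11.72 and 11.97 in the EpCAM- libraries, against 12.82, 12.98 and 12.89 in the EpCAM+ libraries. Replicates of each group lay close together and the groups were far apart, with a fold change of -1.09 ± 0.11 (SE, adjusted p = 0.000308). Srebf1 had 11.41, 11.20 and 11.24 in the EpCAM- libraries, against 11.82, 11.87 and 11.94 in the EpCAM+ libraries. It fell less, by 0.59 ± 0.098 (SE, adjusted p = 0.00299), again without overlap. The values per gene do not separate the transcripts of Srebf1 that start at different promoters.

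Scap stood at 11.51, 11.12 and 11.33 in the EpCAM- libraries, against 11.79, 11.70 and 11.62 in the EpCAM+ libraries. It was lower in all EpCAM- libraries, by 0.38 ± 0.13 (SE), at an adjusted p of 0.0442. The call was lost without EpCAM- replicate 2 (adjusted p = 0.106) or 3 (adjusted p = 0.0964) and without EpCAM+ replicate 1, 2 or 3 (adjusted p = 0.135, 0.105 and 0.0812). It was also lost with no filter (adjusted p = 0.0704) and with scaling by a trimmed mean of log ratios (adjusted p = 0.0532). The call held in 6 of 14 alternatives, and over all of them the adjusted p lay between 0.0145 and 0.237. Of the exon bases of Scap, 13.2% are shared with a gene on the opposite strand.

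Insig1 and Insig2 encode the membrane proteins that retain Scap, and their fold changes had opposite signs, of which that of Insig2 passed. Insig2 was at 10.10, 10.08 and 10.03 in the EpCAM- libraries, against 9.70, 9.60 and 9.52 in the EpCAM+ libraries. All EpCAM- libraries were higher, and the gene rose by 0.46 ± 0.098 (SE, adjusted p = 0.00847), a call that was lost without EpCAM+ replicate 1 and EpCAM- replicate 3 together (adjusted p = 0.0543, between 0.00279 and 0.0543 over the alternatives). Insig1, itself a target of SREBP in many cells, had 10.84, 11.22 and 11.64 in the EpCAM- libraries, against 11.53, 11.55 and 11.70 in the EpCAM+ libraries. EpCAM- replicate 3 lay inside the EpCAM+ range, and the gene did not pass (-0.36 ± 0.20, SE, adjusted p = 0.183). Without that library it was called lower (-0.56, adjusted p = 0.0299, between 0.0299 and 0.394 over the alternatives).

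Within the EpCAM- group, many sterol genes were highest in replicate 3. Replicate 3 held the highest EpCAM- level for 10 of the 19 sterol genes, among them Hmgcs1, Idi1, Cyp51, Msmo1 and Stard4, against 25.9% of all tested genes. Among EpCAM+ libraries, replicate 3 held the highest level for 13 of 19, against 29.1% of all tested genes. EpCAM- replicate 3 also had the lowest fibroblast marker level of its group, 0.144% against 0.482% and 0.634% in replicates 1 and 2. Its summed epithelial marker level was the highest, 0.183% against 0.158% and 0.088%, but single markers differed. Cdh1 (11.51, 10.47 and 13.25 in the EpCAM- libraries), Krt18 and Cldn4 were highest in replicate 3. Epcam, Krt7 and Cldn7 were lowest there, and Krt8 and Krt19 were highest in replicate 1. The part of these marker levels in the pattern was not tested, and without EpCAM- replicate 3, 16 sterol genes were called lower. The median sterol gene, taken relative to its mean over the 6 libraries, lay at -0.69, -0.66 and -0.32 in the EpCAM- libraries, against 0.49, 0.50 and 0.68 in the EpCAM+ libraries. The groups thus kept apart in every library, and the spread within a group was smaller than the distance between groups. The SD among replicates was wider in EpCAM- than in EpCAM+ libraries for 15 of the 19 sterol genes, with a median SD of 0.25 in EpCAM- and 0.12 in EpCAM+ libraries. Over all tested genes that median was 0.23 in EpCAM- and 0.16 in EpCAM+ libraries.

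**Figure D3:**
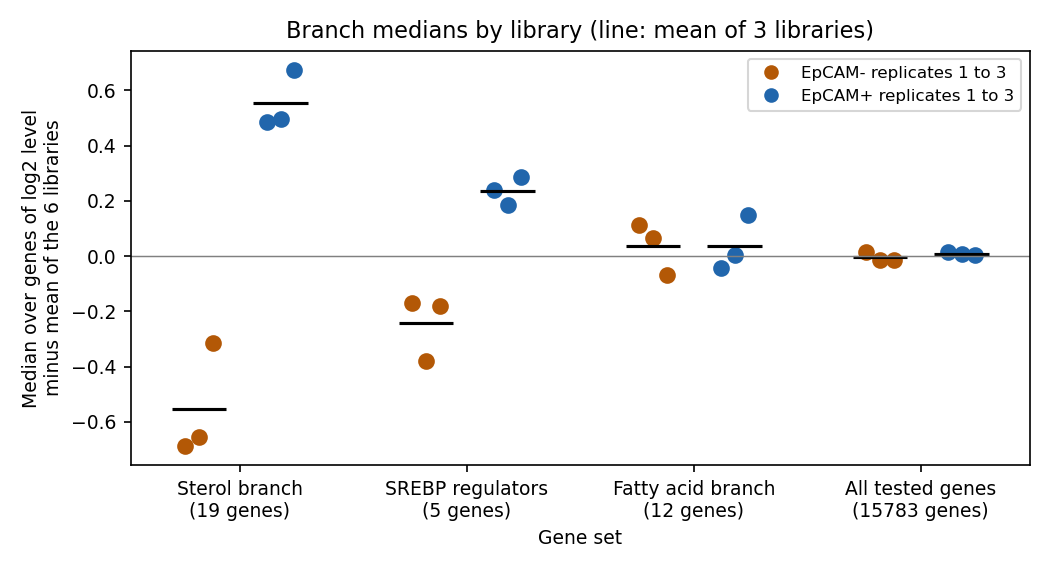
Each point is a library, and the y axis gives the median over the genes of a set of the log2 level minus the gene's mean over the 6 libraries (lines are means of 3 libraries). The sterol branch lies between -0.69 and -0.32 in EpCAM- and between 0.49 and 0.68 in EpCAM+ libraries, whereas for the fatty acid branch both groups have a mean of 0.037.

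The fatty acid branch held no common direction. Its median gene, relative to the mean over the libraries, lay at 0.11, 0.07 and -0.07 in the EpCAM- libraries, against -0.04, 0.005 and 0.15 in the EpCAM+ libraries. The groups overlapped in this measure, and the sign of the branch median changed between alternatives. Genes of the branch without overlap between the groups were 5 of 12, namely 3 higher and 2 lower in EpCAM- cells, where 56.3% of all tested genes had none.

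Among the enzymes that supply acetyl-CoA, the genes for citrate and acetate use differed. Acly, which splits citrate from mitochondria, stood at 13.00, 12.68 and 12.94 in the EpCAM- libraries, against 12.85, 12.96 and 12.86 in the EpCAM+ libraries. The groups overlapped, and the fold change was -0.015 ± 0.12 (SE, adjusted p = 0.929). Acss2, which activates acetate (ENSMUSG00000027605, chromosome 2), had 7.55, 8.22 and 7.75 in the EpCAM- libraries, against 9.70, 9.71 and 9.97 in the EpCAM+ libraries. Every EpCAM- library was lower by more than 1 log2 unit, and the gene fell by 1.96 ± 0.19 (SE, adjusted p = 0.000270), a 3.88-fold decrease. Of the annotated exon bases of Acss2, 9.1% are shared with genes on the opposite strand, whose reads could be counted in its values.

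Of the genes of chain synthesis itself, Acaca rose, and Fasn and Acacb did not pass. Acaca, the carboxylase that makes malonyl-CoA for synthesis, had 11.26, 11.04 and 11.02 in the EpCAM- libraries, against 10.45, 10.81 and 10.72 in the EpCAM+ libraries. It was higher in each EpCAM- library, by 0.45 ± 0.13 (SE) at an adjusted p of 0.0279. The call was lost without EpCAM- replicate 1 (adjusted p = 0.0563), EpCAM+ replicate 1 (adjusted p = 0.0888) or EpCAM+ replicate 3 (adjusted p = 0.0672), and over the alternatives the adjusted p lay between 0.0242 and 0.133. Fasn, fatty acid synthase, stood at 13.27, 13.04 and 13.43 in the EpCAM- libraries, against 12.63, 13.02 and 12.99 in the EpCAM+ libraries. The lowest EpCAM- and the highest EpCAM+ library nearly met, and the gene did not pass (0.36 ± 0.16, SE, adjusted p = 0.104). Acacb, the mitochondrial carboxylase, whose malonyl-CoA restrains fatty acid oxidation, varied between 4.51 and 6.04 in EpCAM- and between 5.50 and 6.07 in EpCAM+ libraries. It did not pass (-0.54 ± 0.40, SE, adjusted p = 0.313), and without EpCAM- replicate 2 it was called lower (-0.96, adjusted p = 0.0461, between 0.0461 and 0.711 over the alternatives).

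The desaturase genes held both the largest decrease and the largest increase of the branch. Fads2, which starts the conversion of linoleic and alpha-linolenic acid to longer polyunsaturated fatty acids (ENSMUSG00000024665, chromosome 19), was at 7.22, 7.73 and 6.68 in the EpCAM- libraries, against 9.79, 9.73 and 10.28 in the EpCAM+ libraries. All EpCAM- libraries were far lower, and the fold change was -2.72 ± 0.29 (SE, adjusted p = 0.000349), a 6.59-fold decrease. Fads1, its neighbour in the genome and the later desaturase of the same conversion, had 9.46, 9.62 and 9.18 in the EpCAM- libraries, against 9.27, 8.95 and 9.59 in the EpCAM+ libraries. Those groups overlapped, and the gene did not pass (0.15 ± 0.19, SE, adjusted p = 0.575).

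Scd1 and Scd2 encode stearoyl-CoA desaturases, which make monounsaturated fatty acids. Scd1 stood at 10.35, 10.61 and 9.93 in the EpCAM- libraries, against 9.29, 9.04 and 9.77 in the EpCAM+ libraries. All EpCAM- libraries were higher, although EpCAM- replicate 3 and EpCAM+ replicate 3 lay close, and the gene rose by 0.93 ± 0.24 (SE, adjusted p = 0.0182). The call was lost without EpCAM- replicate 2 (adjusted p = 0.0531) and without EpCAM+ replicate 1 (adjusted p = 0.0565) or 2 (adjusted p = 0.0584), the last being the highest of the range from 0.0113 over the alternatives. Scd2 was at 13.77, 14.17 and 14.12 in the EpCAM- libraries, against 13.95, 13.95 and 14.09 in the EpCAM+ libraries. Its groups overlapped (0.025 ± 0.15, SE, adjusted p = 0.910).

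The elongase genes Elovl1, for very long chains, Elovl5, for polyunsaturated chains, and Elovl6, for palmitate, did not pass. Their fold changes were -0.32 ± 0.15, -0.15 ± 0.14 and 0.035 ± 0.15 (SE). The groups overlapped for each, and Elovl1 was called lower without EpCAM- replicate 1 (-0.48, adjusted p = 0.00990, between 0.00990 and 0.415 over the alternatives).

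**Figure D4:**
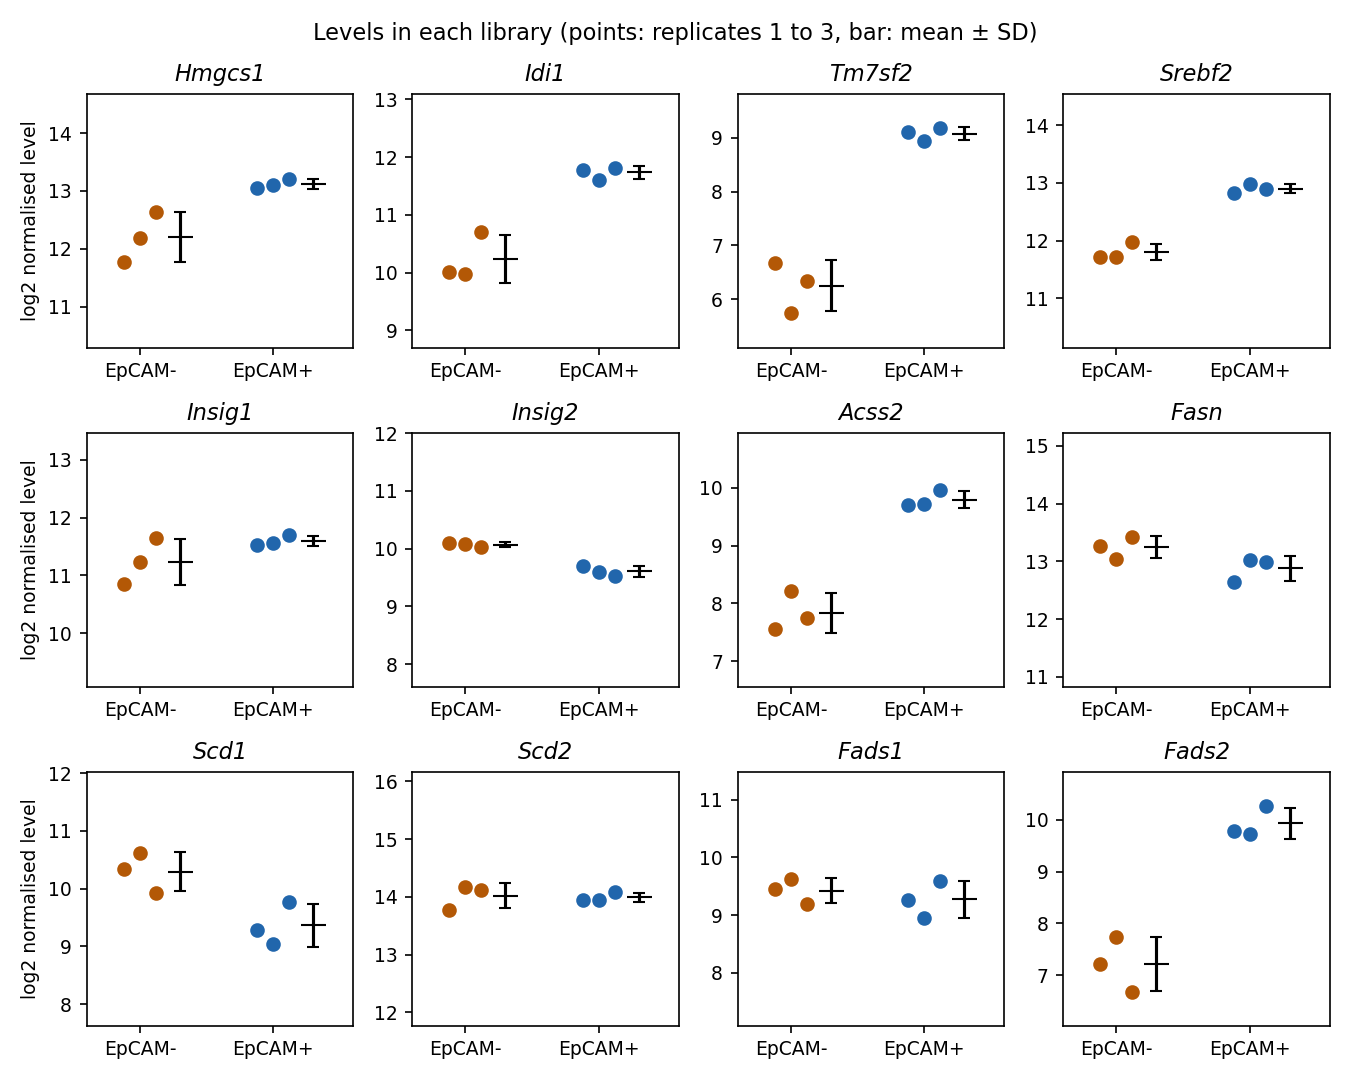
Log2 normalised level (y axis) of 12 genes in each library, EpCAM- at the left and EpCAM+ at the right of each panel, with the mean and SD of 3 libraries beside the points. Tm7sf2, Acss2 and Fads2 are far lower in EpCAM- cells, Insig2 and Scd1 are higher, and Scd2 and Fads1 overlap.

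Members of a family were set against each other within each library, in log2 levels per kilobase of annotated exon. Fads1 minus Fads2 was 1.69, 1.34 and 1.96 in the EpCAM- libraries, against -1.07, -1.32 and -1.23 in the EpCAM+ libraries. On this log2 scale Fads1 was the higher of the pair in all EpCAM- libraries and the lower in all EpCAM+ libraries, and the group difference was 2.87. Scd1 minus Scd2 averaged -3.56 ± 0.41 in EpCAM- cells, against -4.47 ± 0.30 in EpCAM+ cells (SD, n = 3 each). Insig1 minus Insig2 averaged 1.33 ± 0.43 in EpCAM- cells, against 2.15 ± 0.18 in EpCAM+ cells, and Srebf1 minus Srebf2 averaged -0.16 ± 0.21 in EpCAM- cells, against -0.67 ± 0.077 in EpCAM+ cells (SD, n = 3 each). Each of these 4 pairs had no overlap between the groups, which in an exact two-sided permutation test over 3 against 3 libraries gives p = 0.1, the smallest the design allows (adjusted over 6 pairs, 0.15). Acaca minus Acacb (0.99, exact p = 0.2, adjusted 0.24) and Elovl5 minus Elovl6 (-0.18, exact p = 0.5, adjusted 0.5) overlapped.

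Of 27 tested genes in a list of 32 further genes of the same pathways, 12 fell (44.4%), 3 rose (11.1%) and 12 did not pass, against 23.1% lower and 20.3% higher among all tested genes. Among the 4 largest changes of the list were decreases of Mlxipl, the glucose-responsive factor ChREBP (-3.28 ± 0.26, SE), of Fads6 (-3.11 ± 0.41, SE) and of the elongase gene Elovl7 (-2.58 ± 0.35, SE). The mitochondrial citrate carrier gene Slc25a1 (-1.03 ± 0.12, SE) and the gene of malic enzyme, Me1 (-1.15 ± 0.12, SE), also fell. Those that rose were Elovl4 (1.96 ± 0.23, SE), Erlin1 (1.03 ± 0.12, SE), a partner in the degradation of sterol-sensing proteins, and Mbtps1 (0.45 ± 0.089, SE), a protease that releases SREBP. Elovl4 had 4.21, 4.80 and 4.34 in the EpCAM- libraries, against 2.62, 2.36 and 2.48 in the EpCAM+ libraries. It passed the filter only through the EpCAM- libraries. Mlxipl and Scd3, both among the 12 that fell, passed it only through the EpCAM+ libraries. The direction of a call for Elovl4, Mlxipl and Scd3 was thus fixed by the filter. Erlin2, in the same list as Erlin1, went the other way and fell (-0.84 ± 0.12, SE). Slc25a1, Me1, Erlin2 and Scd3 fall outside the 4 largest and were named after their values were seen.

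Of 23 tested genes of cholesterol uptake, storage and efflux, 5 rose (21.7%), 6 fell (26.1%) and 12 did not pass, shares close to the 20.3% higher and 23.1% lower of all tested genes. The lipoprotein receptor gene Lrp1 stood at 15.04, 15.54 and 14.85 in the EpCAM- libraries, against 12.23, 12.74 and 12.42 in the EpCAM+ libraries, and it rose by 2.68 ± 0.22 (SE, adjusted p = 0.000111). Soat1, which esterifies cholesterol for storage, rose by 1.75 ± 0.12 (SE). Gramd1c (-1.83 ± 0.27, SE) and Gramd1b (-1.51 ± 0.26, SE), which carry cholesterol from the plasma membrane to the endoplasmic reticulum, fell. Vldlr, a receptor for lipoproteins rich in triglyceride, rose by 1.47 ± 0.16 (SE) and was named after its value was seen. Fibroblast markers, given above, were higher in the same EpCAM- libraries as Lrp1, and their part in it was not tested.

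Genes of fatty acid uptake and activation gave 2 that rose (15.4%), 3 that fell (23.1%) and 8 that did not pass, of 13 tested, where all tested genes gave 20.3% higher and 23.1% lower. Acss1, the mitochondrial enzyme for acetate, was at 3.58, 3.37 and 3.53 in the EpCAM- libraries, against 8.52, 8.79 and 9.11 in the EpCAM+ libraries. It fell by 5.31 ± 0.21 (SE, adjusted p = 7.08e-06), and the related Acss3 fell by 1.97 ± 0.36 (SE). Among the genes that join CoA to long-chain fatty acids, Acsl6 rose (2.36 ± 0.33, SE), and Acsl1 and Acsl5 did not pass. Acsl4 rose (0.41 ± 0.13, SE, adjusted p = 0.0429) and Acsl3 fell (-0.51 ± 0.17, SE, adjusted p = 0.0456), both near the threshold in limma. The groups overlapped for Acsl3. Acsl1, Acsl4 and Acsl5 were named after their values were seen.

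**Figure D5:**
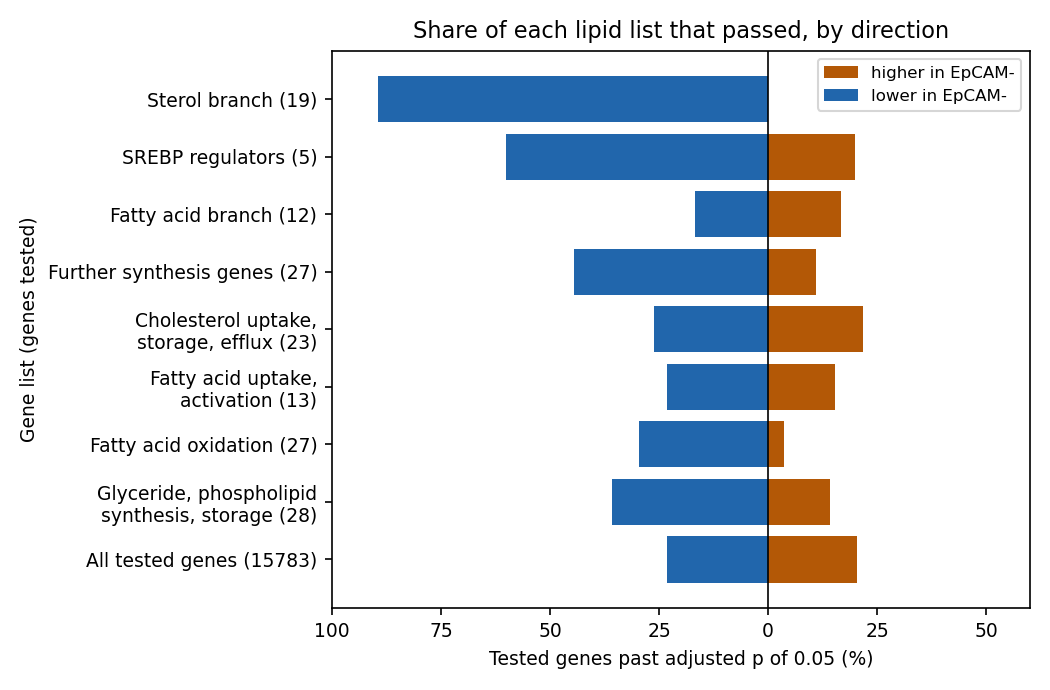
Share of the tested genes of each lipid list called higher (right) or lower (left) in EpCAM- cells by limma at an adjusted p under 0.05, with the number tested in parentheses. The sterol branch reaches 89.5% lower and 0% higher, against 23.1% and 20.3% of all tested genes.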

How the data were processed

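RNA of 6 libraries (KAPA mRNA HyperPrep kit, per the labels' protocols) was given as 1 deposited table of log2 values, normalised between libraries by the authors by a transform that the labels and the table do not name. STAR 2.5.2, RSEM, DESeq2 1.24.0 and GRCm38 are named in the submitters' processing notes. The depth of each library is unknown, so no interval that needs it is given. Values were tested as deposited with limma 3.58.1 in R 4.3.3 (trend in the prior variance, no covariate, two-sided), for the 15783 genes whose linear (back-transformed) values averaged 10 or more. Fold changes are EpCAM- minus EpCAM+. The planned log2(value + 1) applies to linear values and was run as an alternative. On simulated data over 15783 genes, 8%, 36%, 72% and 96% of 50 genes changed by 0.5, 1, 2 and 4 log2 units were recovered. No other genes were changed there, whereas 43.4% of tested genes were called in the real comparison. The Benjamini-Hochberg cut-off was thus stricter in the simulation, and these rates do not give the recovery in the real comparison. The members, lists, tests and the rule for named genes (all 36 members, the 4 largest called changes of other lists) were chosen with earlier results of these data known. Symbols, positions and exon lengths came from GENCODE M21, which matched 25831 of 25978 identifiers. Of 231 listed genes, 5 were not analysed here, and some items of the genotype and the gene lists are not reported here. The series text calls the libraries biological replicates, but no label says which came from the same tumour. The p-values thus describe the spread among these 6 libraries, which may not be a spread among tumours. Alternatives were pseudocounts of 1 and 5, no filter, a filter at 50, scaling by a trimmed mean of log ratios (TMM), quantile normalisation, a block for replicate number, and leaving out libraries.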

Additional observations from a re-analysis of the deposited data

How the results depend on the processing

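The sterol branch kept its direction under every one of the 14 alternatives, with a median log2 fold change between -1.26 and -1.07 and with 14 to 17 of its 19 genes called lower. The count of 14 arose without EpCAM+ replicate 1 and EpCAM- replicate 3 together, where the genes called higher over the whole table numbered 1907 in place of 3197, the fatty acid genes called higher 1 in place of 2 and the regulators called higher 0 in place of 1. Leaving out 1 library at a time gave between 0 and 1 sterol genes called higher and between 0 and 2 fatty acid genes called higher, the 0 without EpCAM+ replicate 1. The median of the fatty acid branch lay between -0.079 and 0.025 and so had no fixed sign. Quantile normalisation moved the median of all tested genes to 0.13, against 0.0043, and changed the calls to 4188 higher and 3261 lower, against 3197 and 3653. With the replicate number as a block, 1 fatty acid gene was called higher in place of 2 (Acaca at an adjusted p of 0.0535), 16 sterol genes were called lower, and calls over the whole table were 3365 higher and 3725 lower. Deviations of libraries with the same number correlated at 0.41, 0.044 and 0.165 for replicates 1, 2 and 3, and not every library correlated best with its own number. With 3 libraries in each group these correlations cannot decide whether the numbers pair the samples. The main fit used no block because no label says that a number marks a tumour. A pseudocount of 1 or 5 changed no call of the 36 genes. The unknown depth and transform limit what fold changes of genes with low levels show.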

Other observations

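Genes of fatty acid oxidation, which were set beside the synthesis genes, mostly did not pass the test. Of 27 tested, 8 fell, 1 rose and 18 did not pass in limma at an adjusted p under 0.05, with a median log2 fold change of -0.25, where 23.1% of all tested genes were lower and 20.3% higher. The decreases included peroxisomal genes, with Acox2, an oxidase of branched chains and bile acid precursors, at -3.65 ± 0.22 (SE) and Ehhadh at -2.20 ± 0.23 (SE), and the mitochondrial dehydrogenase gene Acadm at -0.74 ± 0.12 (SE). Cpt1c, the carnitine palmitoyltransferase form best known from neurons, was the gene that rose, at 8.07, 8.71 and 7.92 in the EpCAM- libraries, against 5.76, 5.38 and 5.21 in the EpCAM+ libraries (2.79 ± 0.27, SE). The main form of the gate to mitochondria, Cpt1a, overlapped between the groups (-0.15 ± 0.13, SE, adjusted p = 0.374).

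Of 28 tested genes of glyceride and phospholipid synthesis and storage, 10 fell (35.7%), 4 rose (14.3%) and 14 did not pass, against 23.1% lower and 20.3% higher among all tested genes. Plin5, among the 10 that fell, passed the filter only through the EpCAM+ libraries, so a call for it could only be lower. Dgat2, which completes triglycerides, stood at 6.64, 6.35 and 6.40 in the EpCAM- libraries, against 9.54, 9.89 and 9.99 in the EpCAM+ libraries. It fell by 3.34 ± 0.17 (SE), while Dgat1, an unrelated enzyme of the same step, did not pass (0.14 ± 0.12, SE, adjusted p = 0.401). The lipase genes Lipe (-1.91 ± 0.18, SE) and Pnpla2 (-1.56 ± 0.14, SE) and the choline kinase gene Chka (-1.61 ± 0.43, SE) were the next largest decreases. Whether the directions of these genes depend on the processing was not examined gene by gene. Cpt1a, Dgat1 and Plin5 were named after their values were seen.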
